A study of Mus musculus with 24 samples.

Results

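The genes described here encode drug-metabolizing enzymes: cytochromes P450 (Cyp), flavin-containing monooxygenases (Fmo), epoxide hydrolases (Ephx), P450 oxidoreductase (Por), glutathione S-transferases (Gst and the membrane-bound Mgst), UDP-glucuronosyltransferases (Ugt) and sulfotransferases (Sult). They were chosen by name and by reads: the symbol had to belong to a numbered member of these families, and 5 reads or more had to be counted in 6 or more mice of a genotype. Of 53465 genes in the table, 173 matched by name and 49 of these passed, among 15493 genes of every kind that passed. Of the 49, 44 passed through both genotypes, 5 through controls only (Cyp2e1, Cyp2r1, Fmo4, Mgst2 and Sult1c2) and 0 through mutants only, so for these 5 a low level in mutants belongs to how they were chosen. Fmo4 (6 control mice and 1 mutant mouse with 5 or more reads) and Sult1c2 (6 and 4) lay just inside this limit, and Gsta3 (2 and 5, with 15 reads at most) lay just outside it.

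These enzymes act in sequence on drugs, toxins and many of the body's own lipids and hormones. P450 enzymes, fed with electrons by Por, and flavin-containing monooxygenases add or expose an oxygen group, epoxide hydrolases open the reactive epoxides that can result, and the transferases then attach glutathione, glucuronic acid or sulfate so that the product can be exported. Most of this work is done in the liver, and the endothelium of brain vessels carries a part of the same machinery at the blood-brain barrier.

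RNA was sequenced from CD31-sorted endothelial cells of single mouse brains to ask how a clock in these cells shapes their transcripts over the day. Controls were Bmal1fl/fl mice, in which an exon of the clock gene Bmal1 (listed as Arntl) is flanked by loxP sites, and mutants were Bmal1fl/fl; Tie2cre mice, in which that exon is removed wherever the Tie2 promoter has driven Cre, in endothelium and also in many blood cells. Both carry the floxed allele on a C57BL/6J background. The paper states that mice of both sexes were used for RNA-seq, but age and sex per mouse are not in the labels. Their part in any difference given here, Fmo2 and Cyp2e1 included, was not tested. Each genotype had 2 mice at every time point, 12 in all, 1 library per mouse; the 6 time points ran from ZT2 through ZT6, ZT10, ZT14 and ZT18 to ZT22, in hours after lights on in a cycle of 12 h light and 12 h dark. The deposited values are whole reads per gene after the authors' normalization, with totals of 6144892 to 6648311 in controls and 6136404 to 6577585 in mutants, and reads are given in this unit throughout.

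The endothelial label was checked with 10 defining genes, among them Cldn5, Pecam1 and Cdh5. All 10 passed the filter, none was at 0, the most abundant was Flt1, and their summed reads ran from 69163 to 112245 per library. The markers of other cell types were present as well. Astrocyte markers summed to 4623 to 21033 reads (9 of 9 passed, Slc1a2 highest), microglia and macrophage markers to 1172 to 28450 (8 of 8 passed), oligodendrocyte markers to 2215 to 18103 (8 of 8, Mbp highest) and pericyte and smooth muscle markers to 9811 to 24613 (9 of 9, Rgs5 highest). Fibroblast markers summed to 165 to 501 (6 of 6, Col1a2 highest), neuron markers to 42 to 719 (5 of 5, Snap25 highest), choroid plexus and ependyma markers to 1869 to 66854 (4 of 4, Ttr highest), red blood cell markers to 1492 to 9014 (5 of 5, Hba-a2 highest) and neutrophil and lymphocyte markers to 0 to 118 (0 of 4 passed, S100a9 highest). None of these markers was at 0 in every library, and astrocyte, microglia, oligodendrocyte and pericyte markers were read in every library; how much of an enzyme gene's reads came from them was not tested. Of all 68 markers 64 passed, and by edgeR's quasi-likelihood test 0 of them differed between genotypes at an adjusted p under 0.05 (0 by DESeq2). At an unadjusted p under 0.05 there were 11 (3 of endothelium, 3 of oligodendrocytes, 3 of red blood cells and 2 of astrocytes), where 6.95% of all genes were.

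The table counts Arntl over the whole gene, with reads from outside the floxed exon, so its level does not check the genotype labels. Arntl held 1 to 468 reads in controls (median 166.5) and 81 to 354 in mutants (median 242.5). Genes that differed between genotypes when a library was left out were used in its place, and each was set nearer to the control or the mutant median in that library. The library labelled control ZT18 replicate 2 lay nearer to controls in only 10 of 62 such genes (16.1%), whereas the other 11 controls did so in 44.2% to 90.9% (median 73.2%). The library labelled mutant ZT6 replicate 1 lay nearer to controls in 54 of 68 (79.4%), against 0% to 43.9% (median 17.1%) in the other 11 mutants. Both libraries thus went against their labels.

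Clock genes were picked for this check after their values were seen. In the library labelled control ZT18 replicate 2 and the library labelled mutant ZT6 replicate 1, in that order, Per3 held 60 and 277 reads (medians 324.5 in controls and 57 in mutants), Nr1d2 258 and 534 (609 and 119.5), Cry1 501 and 365 (287.5 and 480), Per2 147 and 491 (268 and 207) and Tef 317 and 407 (526.5 and 267), each nearer to the other group. Nr1d1 held 282 and 20 (medians 302 and 46) and Dbp 159 and 87 (187 and 90.5), nearer to their own group over the day but away from their partner mice of the same time, which held 43 and 198 reads of Nr1d1 and 68 and 216 of Dbp. Cyp2e1 held 12 reads in the library labelled control ZT18 replicate 2 and 0 in the library labelled mutant ZT6 replicate 1, but 3 controls held 0 as well. The 2 libraries carry consecutive numbers, and whether they were exchanged was not tested; under an exchange, the 12 reads of Cyp2e1 would lie in a mutant. The labels were kept as they are, no library was moved, and results that rest on these 2 libraries are given with and without them. Leaving libraries out because they go against their group can by itself widen a difference between the groups, and this choice was made after seeing the data.

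Levels differed widely among the 49 members. Per kilobase of exon, the scale on which genes can be compared, mean levels over the 24 mice ran from 0.955 (Fmo4) to 629 reads (Gsta4), with a median of 13.1. Gsta4 was followed by Ephx1 (463), Gstm1 (413), Sult1a1 (139), Por (135) and Gstm7 (106). The families were thinned unevenly by the filter. Of 93 Cyp genes 19 passed and 59 had no read in any library, and of 22 Ugt genes 2 passed and 15 had no read. Of 21 Sult genes 4 passed (14 without a read), of 22 Gst genes 13 (2 without), of 7 Fmo genes 4 (3 without), of 4 Ephx genes 3, of 3 Mgst genes 3, and Por passed. Glutathione transferases were thus kept more often than P450s or glucuronosyltransferases, as a description of what the filter left. Of the 124 that did not pass, 93 had no read at all, and 7 of the 49 that passed averaged under 10 reads.

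**Figure D1:**
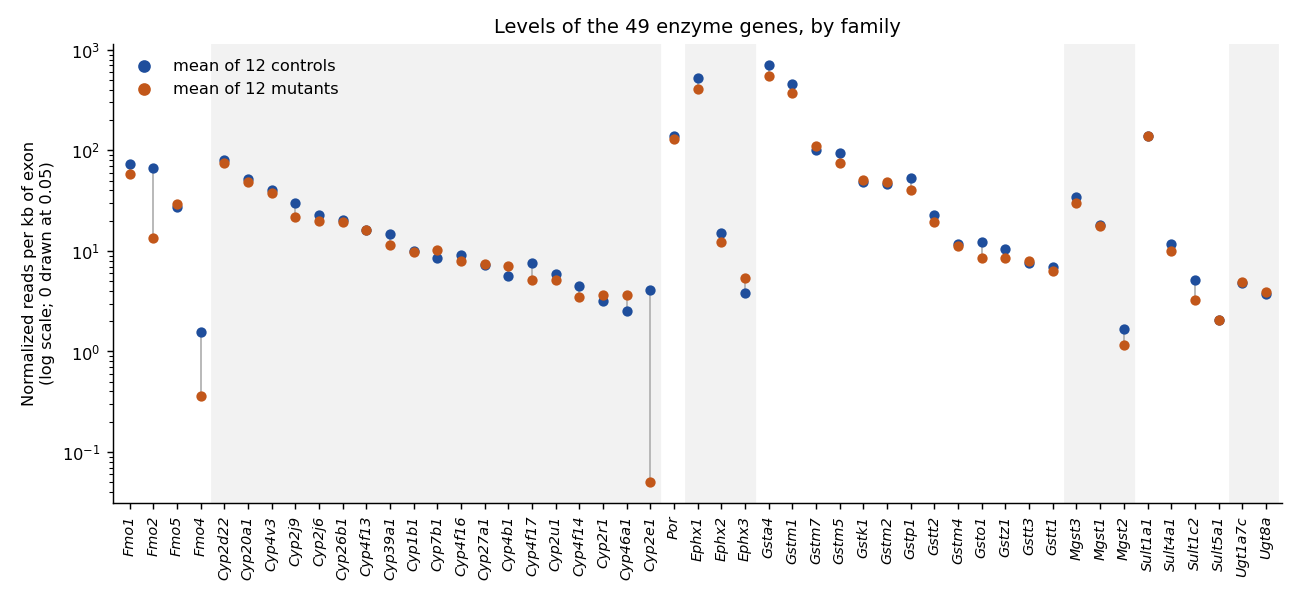
Mean normalized reads per kilobase of exon (log axis) of each of the 49 members in 12 controls (blue) and 12 mutants (orange), grouped by family, with a grey line joining the means of a gene and 0 drawn at 0.05. Gsta4 stands highest at 629 over all mice, and the means of most genes lie close together while those of Fmo2, Fmo4 and Cyp2e1 are far apart.

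Between genotypes, 2 of the 49 members passed at an adjusted p under 0.05, Fmo2 and Cyp2e1, and both fell in mutants; over all 15493 genes 42 passed (0.271%). At an unadjusted p under 0.05 there were 6 members, against 1077 genes in all (6.95%), and each of the 6 was lower in mutants, where 492 of all genes were (3.18%). Besides Fmo2 and Cyp2e1 these were Fmo4, Gstm1, Gsta4 and Ephx1; Cyp2e1 and Fmo4 passed the filter through controls only, so their place in these counts is partly a matter of how genes were chosen. Without both libraries that went against their labels, 2 members passed the adjusted threshold among 92 genes in all (0.594%), and these were Fmo2 and Gstm1. Cyp2e1 then had an adjusted p of 0.0512.

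The members leaned downward as a list. The fitted log2 fold change was below 0 in 38 of 49 members, with a median of -0.23 (also with Cyp2e1 at its bound), where it was below 0 in 7649 of 15493 genes with a median of 0.0033. Without both libraries it was below 0 in 37 members, with a median of -0.13. Under the other scalings of the libraries 39 and 36 members lay below 0, with medians of -0.23 and -0.21. Since 5 members passed the filter only through controls, part of this lean may come with the choice of genes. This was not tested, and the lean is given as a description. Of these 5, Cyp2r1 lay above 0 (0.20) and the others below. The summed reads of the members ran from 5539 to 7470 in controls (median 6566) and from 4793 to 5831 in mutants (median 5423). Over the whole day the ranges overlapped, but at every time point both mutants lay below both controls. Abundant members weigh most in this sum. Mean reads in controls and mutants were 1015 and 792 for Ephx1, 899 and 693.5 for Gsta4, and 670 and 545 for Gstm1. Fmo2 had 373 and 75, while Sult1a1 was even at 208 and 210. How often sums of other genes part in this way was not counted. The library labelled control ZT18 replicate 2 (6533 reads) and the library labelled mutant ZT6 replicate 1 (5669) stood here with their labels. In bulk libraries such as these, fewer cells of a type and less RNA per cell cannot be told apart.

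**Figure D2:**
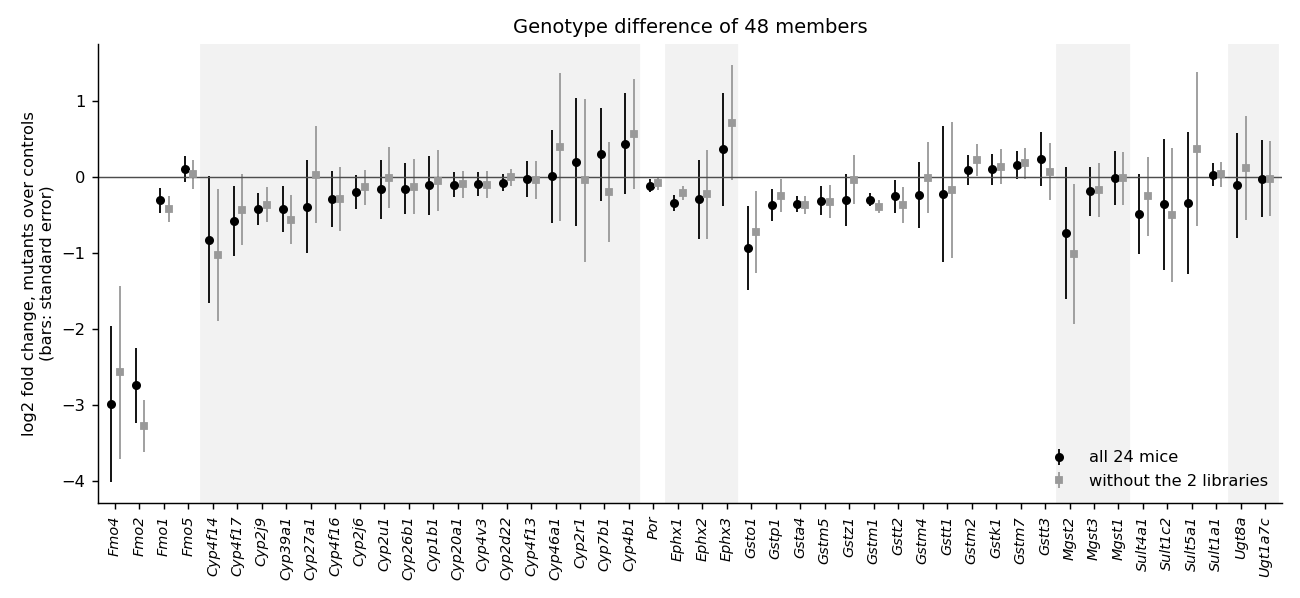
Log2 fold change of mutants over controls (points) with its standard error (bars) for 48 members, by family, from all 24 mice (black) and without the 2 libraries that went against their labels (grey). Cyp2e1, without a read in any mutant, is left out; Fmo2 stands at -2.75 and -3.28, and the bars of most other members reach or cross 0.

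Flavin-containing monooxygenases, which oxidize nitrogen and sulfur atoms of drugs, held the clearest difference. Fmo2 had 47 to 1159 reads in controls (median 265) and 5 to 505 in mutants (median 37). The lowest control was the library labelled control ZT18 replicate 2 and the highest mutant the library labelled mutant ZT6 replicate 1, and these 2 alone made the groups overlap: the other 11 controls held 117 reads or more and the other 11 mutants 80 or fewer. In time order, ZT2 first and ZT22 last, the control pairs were 159/268, 234/262, 321/414, 552/1159, 726/47, 217/117, and the mutant pairs 23/37, 505/56, 80/5, 34/23, 14/43, 37/43. Fmo2 was thus lower in every mutant than in any control of the same time at every time point but ZT6, and 11 of 12 mutants lay below the control median.

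The log2 fold change of Fmo2 was -2.75 (SE 0.49; edgeR adjusted p = 0.00447), and without both libraries it was -3.28 (SE 0.34; adjusted p = 9.31e-07). An exact permutation of genotypes within time points gave p = 0.000214, and p = 8.57e-05 without both libraries, the smallest that its 11664 arrangements can give. The call was lost with the i5 index of the library barcode as a covariate (-2.62, adjusted p = 0.146) and in the ZT6 and ZT18 mice alone (-1.57, adjusted p = 0.866), the time points that hold both libraries in question. The index coincides with genotype at ZT2 and ZT10. At ZT14 and ZT22, where all 8 mice share an index, controls held 117 to 1159 reads and mutants 23 to 43. Library numbers at ZT14 fall in a separate series for each genotype, whereas those of ZT22 lie in the same series. Fibroblast, pericyte, endothelial, astrocyte and oligodendrocyte markers, summed, had medians of 353, 16153.5, 90560.5, 13598 and 7388 reads in controls and 349, 15451.5, 91146, 11173 and 6612.5 in mutants, and the part of other cell types in Fmo2 was not tested.

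Fmo2 lies on the minus strand of chromosome 1 of GRCm38 (chr1:162874317-162898726), close to Fmo1 (chr1:162829561-162866610) and Fmo4 (chr1:162793188-162813972) on the same strand. Fmo1, the most abundant of the family per kilobase (65.5 reads), had 236 to 688 reads in controls (median 433.5) and 120 to 671 in mutants (median 337). The ranges overlapped almost fully, and the highest mutant was the library labelled mutant ZT6 replicate 1. Its log2 fold change of -0.31 (SE 0.16) did not pass (unadjusted p = 0.0688, n = 12 per genotype), and without both libraries it was -0.43 (unadjusted p = 0.0174, n = 11 per genotype; adjusted p = 0.486). Fmo4 had 0 to 17 reads in controls (median 4.5) and 0 to 10 in mutants (median 0); at so few reads, and with a filter passed through controls only, its log2 fold change of -3.00 (SE 1.03, adjusted p = 0.422) says little.

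Fmo5 (chr3:97628804-97655282), apart from the others, held 76 to 254 reads in controls (median 159.5) and 100 to 246 in mutants (median 165). Its log2 fold change was 0.10 (SE 0.17, adjusted p = 0.965), the only value above 0 in the family.

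**Figure D3:**
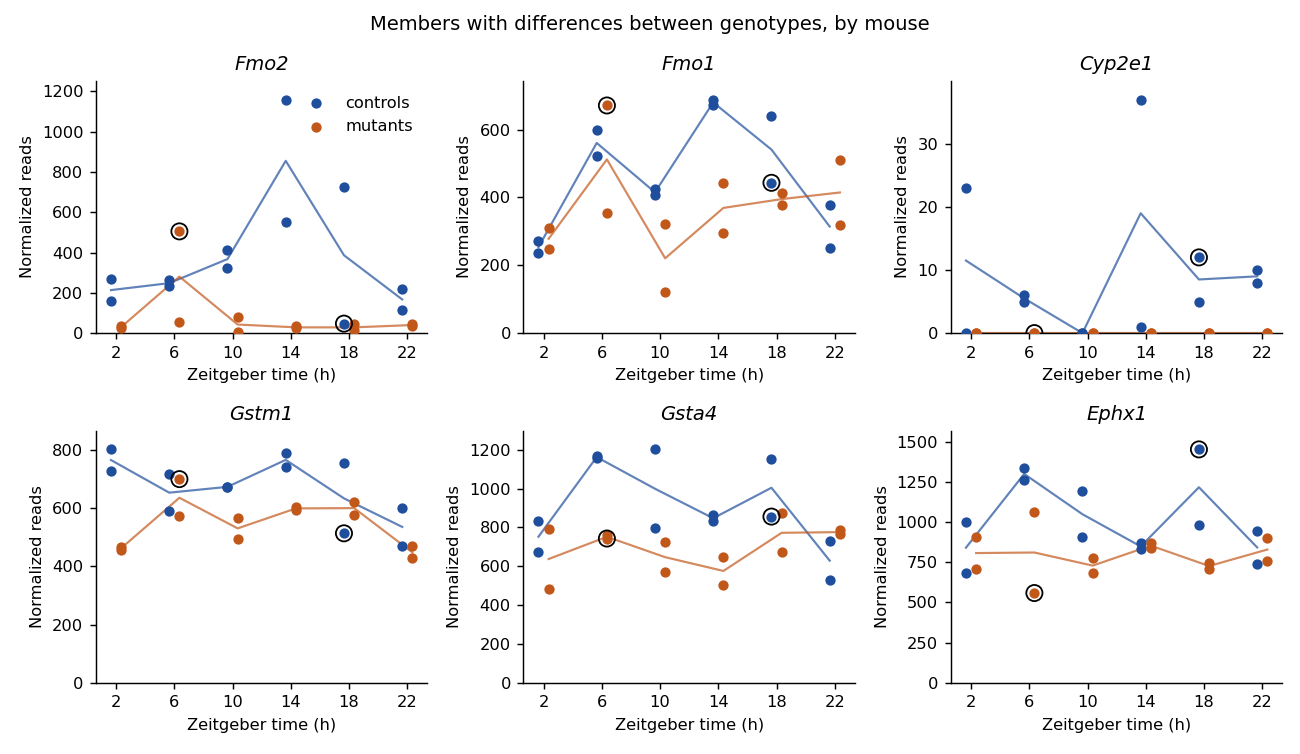
Normalized reads of 6 members in each mouse by zeitgeber time, controls in blue and mutants in orange, with lines through the means of 2 mice; black rings mark the 2 libraries that went against their labels. For Fmo2 the ringed points are the only ones on the other group's side, Cyp2e1 is at 0 in all 12 mutants, and the points of Fmo1, Gstm1, Gsta4 and Ephx1 overlap between genotypes.

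Of the P450 genes, Cyp2e1, whose enzyme oxidizes ethanol and small solvents, was read in controls only. Controls held 0 to 37 reads (median 5.5), with a read in 9 of 12 and 107 reads in all, 37 of them in control ZT14 replicate 1, and each of the 12 mutants held 0. Mutants were thus at least 35.7-fold lower, with a floor of 3 reads over the group (31.7-fold without both libraries); floors of this kind cover counting error only. The edgeR adjusted p was 0.0401, and the exact permutation gave p = 0.000772. This is a call near its threshold on a gene of few reads that passed the filter through controls only: leaving out single libraries gave adjusted p-values of 0.0272 to 0.110, the i5 index as a covariate gave 0.169, DESeq2 gave none, and 10 of 32 alternatives kept it under 0.05.

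The other P450s were more even between genotypes. Among the families Cyp1 to Cyp3, which handle most drugs, Cyp2d22 was the most abundant (77.6 reads per kb), with 151 to 434 reads in controls (median 327.5) and 196 to 362 in mutants (median 313). Its log2 fold change was -0.08 (SE 0.11), and 6 of the 7 members of this class lay below 0. Cyp1b1, which oxidizes oestrogens and polycyclic aromatic compounds, had 17 to 209 reads in controls (median 45) and 0 to 121 in mutants (median 57.5), a log2 fold change of -0.11 (SE 0.39) whose sign turned with the index covariate.

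Of the 6 Cyp4 members, which hydroxylate fatty acids, Cyp4v3 led with 90 to 229 reads in controls (median 155) and 86 to 246 in mutants (median 142), and its log2 fold change was -0.10 (SE 0.16). Among 6 P450s outside the drug and fatty acid families, several of which act on sterols, retinoids or vitamin D, Cyp20a1, an enzyme without a settled substrate, had 58 to 167 reads in controls (median 120) and 78 to 202 in mutants (median 104). Cyp26b1, which breaks down retinoic acid, had 26 to 238 (median 94.5) and 27 to 248 (median 84.5). Genotypes overlapped over nearly the whole range in all of these, and adjusted p-values were 0.948 or more for Cyp2d22, Cyp4v3, Cyp20a1 and Cyp26b1. Part of the exon sequence of Cyp4v3 (8.22%) is shared with Gm45753.

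Por, the reductase on which the microsomal P450s depend, held 465 to 763 reads in controls (median 522) and 359 to 648 in mutants (median 533). Its log2 fold change was -0.11 (SE 0.083, adjusted p = 0.855), and 5 of 12 mutants lay below the control median.

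Ephx1, the microsomal epoxide hydrolase, held 681 to 1451 reads in controls (median 963) and 558 to 1062 in mutants (median 766.5). The highest control was the library labelled control ZT18 replicate 2 and the lowest mutant the library labelled mutant ZT6 replicate 1, so here both stood with their labels, and 11 of 12 mutants lay below the control median. The log2 fold change was -0.34 (SE 0.11, edgeR adjusted p = 0.316), which did not pass, and it was -0.22 (SE 0.091, adjusted p = 0.548) without both libraries. In the mice of ZT2, ZT10, ZT14 and ZT22 alone it was -0.17 (unadjusted p = 0.159 with edgeR, n = 8 per genotype, not exact). In those of ZT6 and ZT18 alone it was -0.69 (edgeR unadjusted p = 0.000152, adjusted p = 0.156). These time points hold both libraries in question. Ephx2 and Ephx3, with medians of 23.5 and 7 reads in controls, were far lower.

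Glutathione S-transferases were the most abundant family. Gsta4, which conjugates the lipid peroxidation product 4-hydroxynonenal, held 529 to 1202 reads in controls (median 844) and 481 to 872 in mutants (median 733.5). Gstm1, a transferase of the mu class, held 471 to 801 in controls (median 695) and 427 to 699 in mutants (median 568.5). For each, 11 of 12 mutants lay below the control median, while the ranges overlapped.

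Gstm1 had a log2 fold change of -0.30 (SE 0.090, adjusted p = 0.257). Without both libraries it passed, at -0.39 (SE 0.082, adjusted p = 0.0121), with 11 of 11 mutants below the control median. The difference was not seen in the ZT6 and ZT18 mice alone (-0.03) and was -0.44 (adjusted p = 0.0805) at the other 4 time points; with the index as a covariate it was -0.20 (adjusted p = 0.752). The log2 fold change of Gsta4 was -0.36 (SE 0.11, adjusted p = 0.278), and -0.37 (SE 0.12, adjusted p = 0.245) without both libraries. With no filter on low reads Gsta4 and Ephx1 had edgeR adjusted p-values of 0.0294 and 0.0447. Their fold changes were nearly unchanged there (-0.36 and -0.34), but their SEs were smaller (0.095 and 0.093). Over all genes 141 of 25174 passed in that fit.

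The Gstm genes form a cluster on chromosome 3 (Gstm1 at chr3:108012255-108017973) and resemble each other in sequence, so reads may have been split among them and their single values are uncertain. Gstm7, with 66 to 242 reads in controls (median 178) and 117 to 251 in mutants (median 181), and Gstm5, with 80 to 216 (median 95.5) and 45 to 183 (median 84.5), overlapped between genotypes (log2 fold changes 0.16, SE 0.18, and -0.31, SE 0.19). Mgst3, the leading membrane-bound transferase at 32.3 reads per kb, held 12 to 68 reads in controls (median 43.5) and 14 to 62 in mutants (median 28), at -0.19 (SE 0.32).

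Among the sulfotransferases 3 of 4 members lay lower in mutants (family median -0.35), none of which passed, and both Ugt members lay near 0 (median -0.07). Without both libraries Sult5a1 turned from -0.35 to 0.37 and Ugt8a from -0.11 to 0.12, while Sult1c2 (-0.50) and Sult4a1 (-0.25) stayed below 0. Sult1a1, which sulfates phenols, held 49 to 402 reads in controls (median 179) and 47 to 508 in mutants (median 197.5), at 0.03 (SE 0.15). Ugt1a7c held 0 to 73 in controls (median 24) and 0 to 54 in mutants (median 15), at -0.02 (SE 0.51). A share of 54.6% of its exon sequence belongs to other Ugt1a genes as well, so its count is uncertain.

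The 30 members not named by level or by a test averaged 5.29 to 87 reads. Their log2 fold changes ran from -0.94 to 0.44 (median -0.25), and the smallest unadjusted p among them was 0.0513 in a test with n = 12 per genotype. For rhythm by meta2d, the test used for naming, their smallest unadjusted p was 0.0836 in controls and 0.0869 in mutants (n = 12 each); by a cosine fit it was 0.0379 and 0.00904 (n = 12 each).

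Over the day, Sult1a1 was the member with an unadjusted meta2d p under 0.05 in both genotypes (n = 12 each). From ZT2 onward its control pairs were 77/49, 102/172, 338/343, 341/402, 200/170, 118/186 reads, and its mutant pairs 47/109, 121/207, 361/204, 319/508, 191/209, 103/136. In either genotype both mice of ZT10 and ZT14 lay above those of ZT2 and ZT22. The meta2d method, which combines JTK_CYCLE and Lomb-Scargle, gave p = 0.00154 in controls (n = 12, q = 0.588) and p = 0.00271 in mutants (n = 12, q = 0.808).

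A cosine of 24 h fitted to Sult1a1 peaked at ZT12.9 in controls and ZT13.1 in mutants, with relative amplitudes of 71.1% and 71.4%. The test of a difference in rhythm between genotypes gave p = 0.881 (n = 12 per genotype), and the unadjusted p stayed below 0.05 in each of 19 alternatives in either genotype, with 0.0167 as the highest.

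In controls Sult1a1 alone had a meta2d p under 0.05, where 377 of all genes did (2.43%), and it alone passed the study's lenient threshold of q under 0.6, which 48 genes passed (0.31%). In mutants 2 members had a p under 0.05, Sult1a1 and Cyp1b1, against 351 genes (2.27%), and 0 had a q under 0.6, against 6 genes (0.0387%).

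The mutant pairs of Cyp1b1, from ZT2 to ZT22, were 76/71, 14/56, 30/0, 35/41, 93/89, 121/59. It was thus lowest at ZT10 and high from ZT18 to ZT2. The meta2d p was 0.00494 in mutants (n = 12; 0.0134 without the library labelled mutant ZT6 replicate 1, and 0.0510 by a cosine fit with the replicate block) and 0.679 in controls (n = 12), and the genotypes did not differ in rhythm at the threshold (p = 0.271, n = 12 per genotype).

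**Figure D4:**
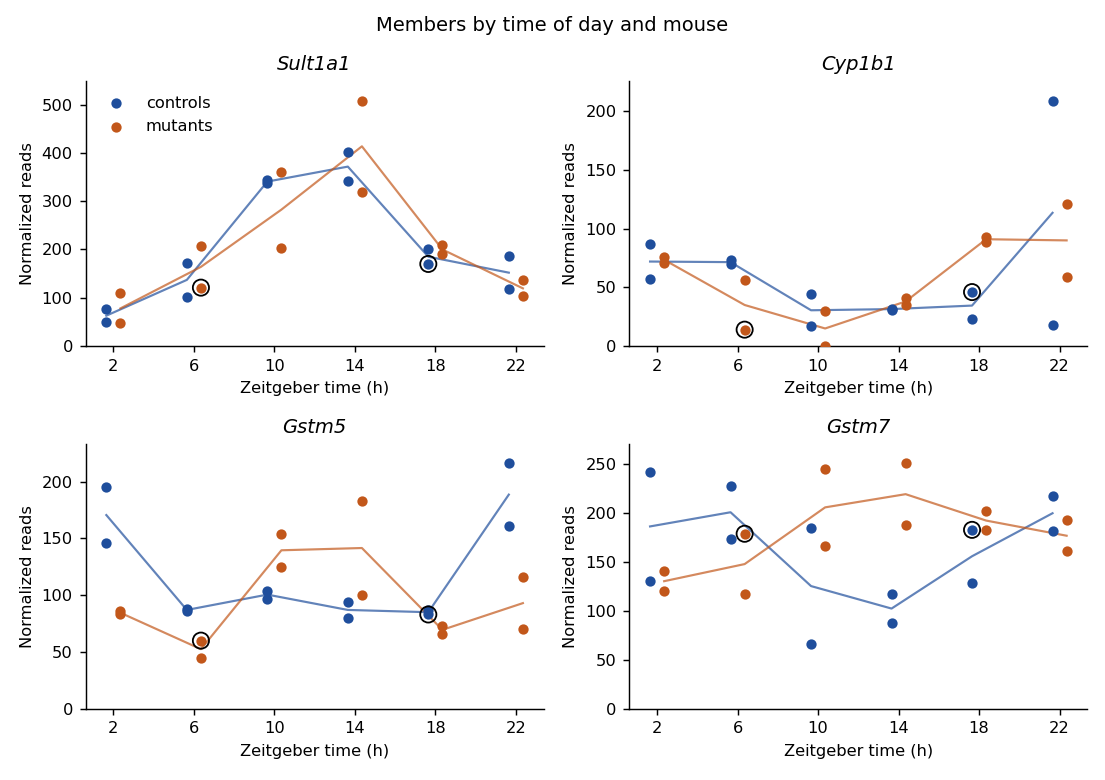
Normalized reads of 4 members in each mouse by zeitgeber time, controls in blue and mutants in orange, with lines through the means of 2 mice; black rings mark the 2 libraries that went against their labels. Sult1a1 is highest at ZT10 and ZT14 in both genotypes, and Gstm5 and Gstm7 are lower in controls than in mutants at ZT14.

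A difference in rhythm between genotypes was tested for each gene as the interaction of genotype with the cosine. By edgeR 0 of 15493 genes passed at an adjusted p under 0.05 (0%; 1 by DESeq2), and 660 had an unadjusted p under 0.05 (4.26%), among them 3 members: Gstm5, Gstm7 and Fmo2. Without both libraries there were 5, with Fmo1 and Mgst3 added, among 785 genes in all. In the main fit the adjusted p was 1.00 for each of the 3, so none passed. Over all genes, 52 of 25174 passed with no filter and 2 without both libraries. The unadjusted p of Fmo2 ran from 4.0e-19 to 0.0906 over 32 alternatives, the lowest small enough to pass after adjustment. With single mice left out it ran from 0.00192 to 0.0906, so the lowest value stands alone. Fits with no filter call for caution. There the SE of Fmo2 in the genotype test was 0.17, against 0.49 in the main fit, at nearly the same fold change.

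For Gstm5, again in time order, the control pairs were 195/146, 88/86, 104/97, 80/94, 87/83, 161/216 and the mutant pairs 83/86, 60/45, 125/154, 100/183, 73/66, 116/70. The genotypes did not overlap at any time point, with controls higher at ZT2, ZT6, ZT18 and ZT22 and mutants higher at ZT10 and ZT14. Gstm5 is shown because of its interaction p, and how many of all genes part in this way was not counted. The i5 index coincides with genotype at ZT2 and ZT10. Gstm5 was also lower in the ZT6 and ZT18 libraries (log2 fold change -0.77, edgeR adjusted p = 0.00753). The fitted peaks were at ZT24.0 in controls and ZT12.9 in mutants (unadjusted p = 0.00617, n = 12 per genotype).

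Gstm7 held 131/242, 174/228, 66/185, 88/117, 129/183, 182/218 in the control pairs and 141/120, 179/117, 167/245, 188/251, 202/183, 161/193 in the mutant pairs. Genotypes were apart at ZT14, with mutants higher, touched at 183 reads at ZT18, and overlapped at the other time points. Fitted peaks were at ZT1.3 and ZT14.4 (unadjusted p = 0.00903, n = 12 per genotype). For Fmo2 the control values were highest at ZT14 (fitted peak ZT13.7), and the mutant values were low throughout but for the library labelled mutant ZT6 replicate 1; here the interaction gave an unadjusted p of 0.00934 (n = 12 per genotype), 0.0165 without both libraries (n = 11 per genotype), and 0.0906 without the library labelled mutant ZT6 replicate 1 alone.

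The 8 libraries of ZT6 and ZT18 stood apart from the other 16. Their library numbers follow one another as a block, but run on without a gap into those of other time points. The labels name no batch, and time and place in this order cannot be told apart. Their mitochondrial share was 2.68% to 3.90%, against 5.78% to 17.4% in the others. Microglia and macrophage markers summed to 1172 to 1948 reads against 10719 to 28450, astrocyte markers to 4623 to 7624 against 10573 to 21033, oligodendrocyte markers to 2215 to 4488 against 5272 to 18103 and neuron markers to 42 to 95 against 100 to 719. Endothelial markers summed to 108125 to 112245 against 69163 to 101312, and pericyte and smooth muscle markers to 15243 to 24613 against 9811 to 19351. At an adjusted p under 0.05, 8 of 8 microglia, 8 of 9 astrocyte, 7 of 8 oligodendrocyte, 5 of 5 neuron, 4 of 4 choroid plexus and 5 of 5 red blood cell markers were lower in these libraries, and 8 of 10 endothelial and 8 of 9 pericyte markers higher.

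Among the enzyme genes 8 were lower in these libraries at an adjusted p under 0.05, where 1773 of all genes were (11.4%), and 3 were higher, where 1117 were (7.21%). The lower ones were Cyp27a1, Cyp2j9, Ephx2, Gstm5, Sult1c2, Sult4a1, Ugt1a7c and Ugt8a, and the higher ones Fmo1, Gsta4 and Por. Without both libraries 8 were lower and 2 higher, Fmo1 no longer among them. Ugt1a7c held 0 reads in all 8 and 8 to 73 in the other 16, so that the sets did not overlap. Ephx2, the soluble epoxide hydrolase, held 0 to 26 (median 11.5) against 0 to 130 (median 40), at a log2 fold change of -1.99 (SE 0.58, adjusted p = 0.0139). Por held 518 to 763 (median 639.5) against 359 to 674 (median 500), at 0.29 (SE 0.087, adjusted p = 0.0162). The part of other cell types in these differences was not tested. With the i5 index as a covariate 1 member passed in place of 11, and 595 of all genes in place of 2890.

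**Figure D5:**
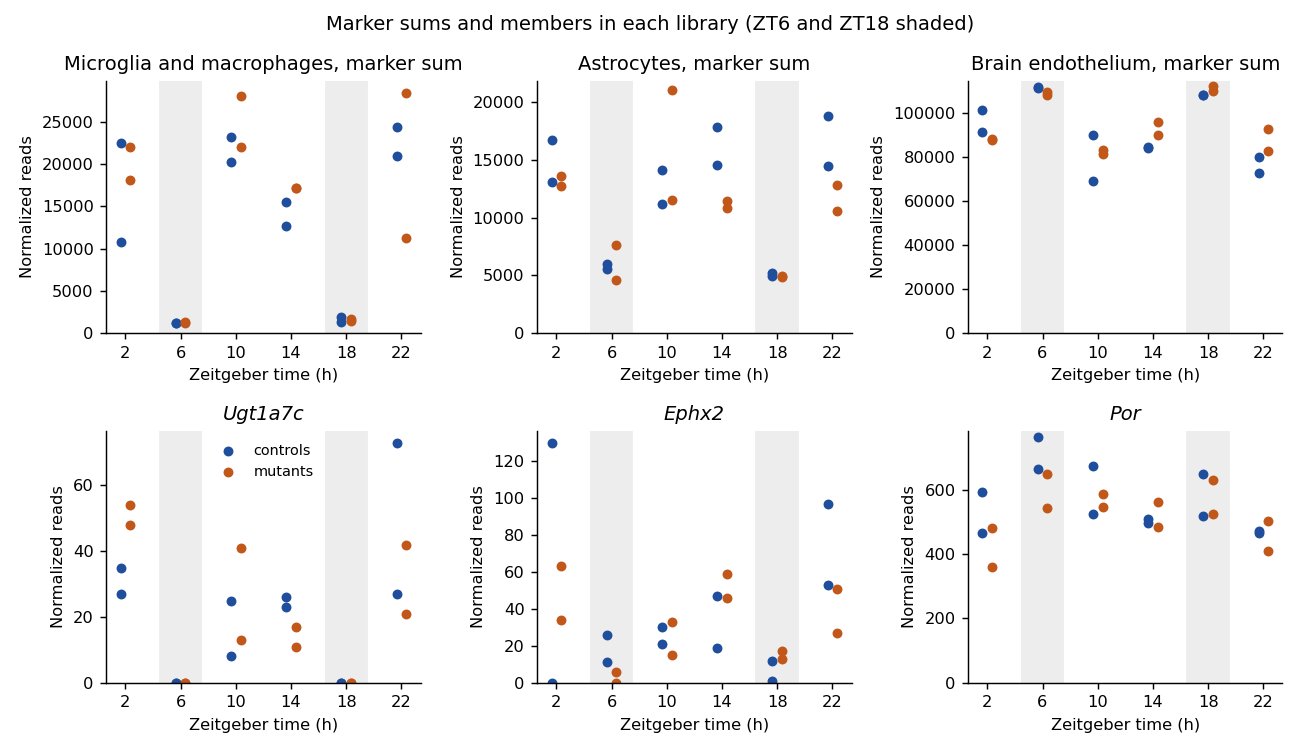
Summed normalized reads of 3 marker lists (top) and normalized reads of 3 members (bottom) in each library by zeitgeber time, controls in blue and mutants in orange, with ZT6 and ZT18 shaded. Microglia and astrocyte sums and Ugt1a7c are low in the shaded libraries, where Ugt1a7c is at 0 in all 8, and endothelial sums are high there.

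Of 73 other genes of drug metabolism listed by role, 65 passed the filter. The 8 that did not include the drug-sensing receptors Nr1i2 and Nr1i3 and the repressor Ahrr, besides Aldh1b1, Akr1b8, Ces1d, Nat1 and Nat8. The most abundant per kilobase were Maoa (452 reads), Akr1a1 (449), Gpx1 (398), Cyb5r3 (316) and Gpx4 (310), which oxidize amines, reduce aldehydes, remove peroxides and pass electrons to cytochrome b5. These levels are of the same order as those of Ephx1 and Gstm1.

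Between genotypes 4 of the 65 passed at an adjusted p under 0.05, 3 lower and 1 higher in mutants, on a list chosen with earlier results of these data known; over all genes 42 of 15493 passed (0.271%). Of the 14 sensors and regulators the 3 PAR bZIP factors Dbp, Tef and Hlf fell, transcription factors known as clock outputs that bind D-boxes. Dbp held 38 to 1197 reads in controls (median 187) and 26 to 272 in mutants (median 90.5), with a log2 fold change of -1.26 (SE 0.25, edgeR adjusted p = 0.0115). Tef and Hlf had log2 fold changes of -0.87 (SE 0.16, adjusted p = 0.00458) and -0.76 (SE 0.14, adjusted p = 0.00447). All 3 ranges overlapped between genotypes.

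Of the 22 other oxidizing and hydrolysing enzymes 1 passed: Bche, the esterase that splits choline esters, rose, with 228 to 1530 reads in controls (median 474) and 535 to 1164 in mutants (median 966.5). The highest control was the library labelled control ZT18 replicate 2 and the lowest mutant the library labelled mutant ZT6 replicate 1. Its log2 fold change was 0.81 (SE 0.17, adjusted p = 0.0298), and 1.06 (adjusted p = 1.27e-05) without both libraries. By edgeR 0 of the 7 partners of the P450 system and 0 of the 22 other conjugating and cofactor genes passed, and 0 of either had an unadjusted p under 0.05. The same 4 genes passed without both libraries, and no other gene of the list did.

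Promoter sequences, from 250 bases before to 50 after a start site, were matched by symbol in RefSeq (build GRCm38.p6) for 39 of the 49 members, with 49 promoters among 32851 in all. They were searched on both strands for motifs of the clock, of the PAR bZIP factors and of the xenobiotic and antioxidant responses, picked after values were seen. The E-box CACGTG was in 2 of the 49 member promoters, where 7.15% of all promoters hold it. The E'-box CACGTT was in 4 of the 49, where 4.68% of all promoters hold it. For all 6 sites of these boxes the start site lies within the annotated gene, after its 5' end, and for Fmo2, Cyp2e1 and Gstm1 the box does as well. The D-box TTATGTAA and its form TTACGTAA were in 0 member promoters (0.938% and 0.119% of all promoters). The xenobiotic response element TNGCGTG was in 0 (5.07% of all) and the antioxidant response element TGACNNNGC in 5 of the 49 (12.4% of all). A match is a description of letters, and draws no link to a factor.

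All sites of both boxes in member promoters are shown. Each run is 30 bases, 5' to 3' on the strand that reads the motif, which is in capitals:
Fmo2 E'-box (chr1:162898499-162898528, minus strand, in an annotated exon, 23 bases before the start site): ggactttgtaaaCACGTTtacaatgaaggt
Cyp2e1 E'-box (chr7:140763771-140763800, plus strand, in an annotated exon, 36 bases before the start site): ccttctcaacgaCACGTTataaaatccttg
Gstm1 E'-box (chr3:108017851-108017880, minus strand, in an annotated exon, 50 bases before the start site): ttttgtcctgccCACGTTtctctagtagtc
Gstp1 E'-box (chr19:4037976-4038005, plus strand, before the gene, 81 bases before the start site): atgctgactcaaCACGTTggagagagaagc
Cyp2j6 E-box (chr4:96553678-96553707, minus strand, before the gene, 44 bases before the start site): aagagctctgtgCACGTGatcaggggttct
Cyp4v3 E-box (chr8:45333317-45333346, minus strand, before the gene, 171 bases before the start site): accgtgagctttCACGTGcattctgaactt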

How the data were processed

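RNA-seq of 24 libraries, 1 per mouse, was analysed. The authors aligned reads to GRCm38 with STAR 2.5.3a, merged lanes with SAMtools 1.3.1 and deposited gene counts normalized with PORT, so how deep each library was sequenced cannot be read from them. For genotype and rhythm differences edgeR 4.0.16 under R 4.3.3 was used (TMM scaling and quasi-likelihood tests, either with a term per time point or with cosine and sine terms of 24 h by genotype), with p-values adjusted by Benjamini and Hochberg's method over 15493 genes; the biological coefficient of variation was 42.4%. For rhythm within a genotype, meta2d was written anew in Python 3.11.15 (NumPy 2.4.6; SciPy 1.17.1; pandas 2.3.3); its phases were set by comparison with the study's own lists, so it is not independent of them. The permutation test was two-sided, exact within time points, on log2(CPM + 1). Exon lengths came from GENCODE M21.

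Members with a mean of 100 reads or more, with an unadjusted p under 0.05 in the genotype, rhythm difference or meta2d test, or highest per kb in their family are named, as are the 5 most abundant other genes of the pathway and those past the genotype threshold. The members and lists were chosen with earlier results of these data known. Alternatives were other scalings, filters, DESeq2 1.42.0, JTK_CYCLE alone, cosinor fits, a replicate block, a covariate for the i5 index, subsets of time points and each mouse left out; leaving out both libraries that went against their labels was chosen after seeing the data. The genotype, rhythm and rhythm difference tests were tried on simulated data. Plots were drawn with matplotlib 3.10.9.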

Additional observations from a re-analysis of the deposited data

Results flagged for a closer look

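Of the members, 3 differed between genotypes in their course over the day at an unadjusted p under 0.05, as did 660 of 15493 genes (4.26%). At an adjusted p under 0.05 none did so in the main fit. With no filter 52 of 25174 genes did, and 2 genes did without both libraries that went against their labels. For Gstm5 the p of the difference in rhythm was 0.00617 (n = 12 per genotype), for Gstm7 0.00903 (n = 12 per genotype) and for Fmo2 0.00934 (n = 12 per genotype). Without the library labelled mutant ZT6 replicate 1 the p of Fmo2 was 0.0906 (n = 12 controls and 11 mutants). Over 32 alternatives the lowest unadjusted p of Fmo2 was 4.0e-19, small enough to pass after adjustment. With single mice left out it ran from 0.00192 to 0.0906, so a pass rests on the choice of fit.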

How the results depend on the processing

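Of the enzyme genes, 2 passed the genotype test. There were 4 with no filter, 1 with a filter of 10 reads on average, 1 with DESeq2, 1 in the mice of ZT2, ZT10, ZT14 and ZT22 alone, 0 in those of ZT6 and ZT18 alone and 0 with the i5 index as a covariate; leaving out single mice gave 1 to 2. Over all genes, 42 in the main choice, these were 141 of 25174, 42 of 13894, 99, 28, 3 and 7 in the same order. With the replicate block there was 1. The same-numbered mice of the 6 time points did not deviate together (correlations of -0.0052 to 0.034), so no pairing by these numbers was seen. The paper states that the mice came from 2 independent experiments. The labels do not say which mouse belongs to which, and the part of the experiment was not tested. The difference between the ZT6 and ZT18 libraries and the others, 11 members, became 14 with DESeq2, 1 with the i5 index, 2 in controls alone, 6 in mutants alone and 9 to 12 with single mice left out; all genes went from 2890 to 3245, 595, 1325 and 1744. A rhythm difference, 3 members at an unadjusted p under 0.05, became 8 with no filter and 5 with the i5 index. It became 5 without both libraries that went against their labels and 3 to 5 with single mice left out. Over all genes 660 became 1566 of 25174 with no filter, 930 with the index and 785 without both libraries. At an adjusted p under 0.05, 0 genes became 52, 1 and 2 in the same order. Rhythm in controls, 1 member, became 3 with JTK_CYCLE alone, 3 without both libraries, 5 with a cosinor, 6 with a cosinor and the replicate block and 1 to 3 with single mice left out. Rhythm in mutants, 2 members, became 7 with a cosinor, 4 with the replicate block added and 2 to 3 with single mice left out. The causes were not tested.

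Log2 fold changes of some members turned sign. With the i5 index Cyp1b1 was at 0.0448, Cyp26b1 at 0.18 and Mgst3 at 0.17. In the ZT6 and ZT18 mice alone Cyp1b1 was at 0.21, Cyp26b1 at 0.78 and Gstm7 at -0.0384, and at the other times Cyp26b1 was at -0.65 and Sult1a1 at -0.0675. Without further scaling Ugt1a7c was at 0.0035. With single mice left out Cyp1b1 ran from -0.26 to 0.16, Cyp26b1 from -0.39 to 0.0319, Sult1a1 from -0.0604 to 0.0923 and Ugt1a7c from -0.27 to 0.20. Fmo2 stayed below 0 in 35 of 35 alternatives, from -3.28 to -1.57, with an adjusted p under 0.05 in 32 of 34; for Cyp2e1 this was 10 of 32. The fold of 7 members rests on an average of under 10 reads, where depth limits what can be seen.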

Other observations

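Besides the enzyme families, Xdh (xanthine dehydrogenase), picked after its values were seen, was high around dusk in both genotypes. Controls held 1261 and 1048 reads at ZT2 and 2653 and 2435 at ZT14, and mutants 1411 and 917 at ZT2 and 3330 and 4104 at ZT14. The fitted peaks were ZT12.9 and ZT13.3, close to those of Sult1a1, with meta2d p = 0.000129 in controls (n = 12, q = 0.26) and p = 0.000199 in mutants (n = 12, q = 0.513).

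Hpgds, a prostaglandin D synthase of the glutathione transferase superfamily, also picked after its values were seen, held 6 to 52 reads in the ZT6 and ZT18 libraries and 184 to 819 in the other 16, without overlap. Its log2 fold change was -4.37 (edgeR adjusted p = 1.08e-13), and microglia and macrophage markers were low in the same 8 libraries; their part in it was not tested.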
